A study of Rattus norvegicus with 4 samples.

Results

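The 10 genes studied here encode opioid, tachykinin and reproductive neuropeptide precursors and were measured in rat hypothalamus after injection of triiodothyronine (T3), the active thyroid hormone. They were taken by name: Penk, Pdyn, Tac1, Tac3, Kiss1, Gnrh1, Npvf, Adcyap1, Cck and Vip, which are 10 of the 13440 genes that had a named probe on the array. The rule did not use their values, but the list was chosen with earlier results of these data known. The 10 genes had 12 probes, and all 10 were measured well enough to be tested. Every one of the 4 two-colour Agilent arrays compared the RNA of 1 T3 rat with that of 1 saline rat. The T3 group comprised 4 male Sprague Dawley rats given 25 µg T3 per 100 g, and the saline group comprised 4 rats of the same strain and sex. All 8 rats were hypothyroid: the water they drank held 0.025% methimazole (MMI), which blocks thyroid hormone synthesis, for 22 days. Injection was on day 21, tissue was taken 24 hours later, and the rats were 10 weeks old. No rat with normal thyroid function was analysed here, so each value compares a hypothyroid rat given hormone with a hypothyroid rat given saline. The T3 rat carried Cy5 on arrays 1 and 3, and Cy3 on the other two.

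Neuropeptides are cut from larger precursors by convertases in dense core vesicles and act on G protein-coupled receptors. Kisspeptin, from Kiss1, drives the neurons that release gonadotropin-releasing hormone, from Gnrh1, and so sets the reproductive axis. In rodents, arcuate neurons that make kisspeptin also make neurokinin B (Tac3 in the rat) and dynorphin (Pdyn). The RFamide-related peptides of Npvf, the mammalian counterpart of avian gonadotropin-inhibitory hormone, come from cells around the dorsomedial nucleus. The tissue block ran from bregma -2.12 to -4.52 mm, which takes in the arcuate, dorsomedial, ventromedial and mammillary regions. Most gonadotropin-releasing hormone cell bodies of the rat, in the preoptic area, and the suprachiasmatic nucleus, a main site of Vip neurons, lie in front of that block. In a tissue block, fewer cells of a type and less RNA per cell cannot be told apart.

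Promoters of 6 of the 10 genes were present in the RefSeq promoter table of build GRCr8. 3 are shown, picked by the measurements below. Tac1 was lower on all 4 arrays, as were Penk, Gnrh1 and Adcyap1, of which only Adcyap1 also had a promoter there, which is not shown. Pdyn had the widest spread of T3 ratios, and Vip had the widest spread of brightness between rat pairs. Each run gives the 250 bases before the transcript start that the table uses, 5′ to 3′ on the gene's own strand. Capitals mark TGACG, the half-site of the cyclic AMP response element, on either strand. They also mark TATAAA, the letters of a TATA box, wherever they occur. Tac1 lies at chr4:36645333-36645582 on the + strand, Pdyn at chr3:137366504-137366753 on the - strand, and Vip at chr1:44470230-44470479 on the + strand.
Tac1: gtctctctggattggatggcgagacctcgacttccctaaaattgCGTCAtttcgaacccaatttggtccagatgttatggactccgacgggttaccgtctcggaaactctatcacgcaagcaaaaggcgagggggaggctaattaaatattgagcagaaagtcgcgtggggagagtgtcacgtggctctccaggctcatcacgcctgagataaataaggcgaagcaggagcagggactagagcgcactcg
Pdyn: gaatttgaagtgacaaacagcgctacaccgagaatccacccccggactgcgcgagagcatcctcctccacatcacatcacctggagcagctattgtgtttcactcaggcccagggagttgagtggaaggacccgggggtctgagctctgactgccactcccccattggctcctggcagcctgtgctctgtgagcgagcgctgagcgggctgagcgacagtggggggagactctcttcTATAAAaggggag
Vip: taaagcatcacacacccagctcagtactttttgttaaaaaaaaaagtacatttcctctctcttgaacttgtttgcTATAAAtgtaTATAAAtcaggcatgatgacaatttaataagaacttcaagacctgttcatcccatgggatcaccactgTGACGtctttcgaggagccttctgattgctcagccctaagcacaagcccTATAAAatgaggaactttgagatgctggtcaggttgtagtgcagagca
Both strands were searched over 300 bases per promoter, the 250 above and 50 after the start. The thyroid hormone response half-site AGGTCA was found in none of the 6 member promoters, and 15.7% of 27457 promoters of the same length held it. TGACG was found in Vip at position -97, in Tac1 at -206 and in Kiss1 at -49, counted from the start, and 22.0% of all promoters held it. The full element TGACGTCA, which contains TGACG, was found in none of the 6, against 1.91% of all promoters. TATAAA was found in Vip at -175, -165 and -48, in Pdyn at -13, in Npvf at -42 and in Adcyap1 at -248. It was held by 14.3% of all promoters. These matches describe letters in a window and are no evidence of binding.

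Values are log2 ratios of T3 over saline within an array, after background correction and loess normalization, and the brightness given for each rat is the normalized intensity of its channel in arbitrary units. Differences were tested with limma over 23191 probes, and a gene was called at a Benjamini-Hochberg adjusted p under 0.05. Of all 9304 named genes tested, 0.161% were called in either direction (15 genes, 14 higher and 1 lower), and 0.0107% were called lower. Of the 10 neuropeptide genes, 0 were called in limma, and 2 (Penk and Tac1, both lower) had an unadjusted p under 0.05, against 9.26% of named genes. The treatment itself was visible: Hr, a corepressor gene that thyroid hormone raises directly in brain, rose by 1.18 ± 0.15 (SD, n = 4 arrays) on the log2 scale, with a limma adjusted p of 0.013. By the brightest probe of each gene, Hr was the 1 gene called of 9 tested in the list of genes raised by thyroid hormone. Of these, 9 had a higher mean and 6 an unadjusted p under 0.05. Klf9, another gene of the list, gave 0.90 by its brightest probe (limma adjusted p 0.052). Its second probe was called, with a mean of 1.085 (limma adjusted p 0.013). No probe was called, Hr included, without array 1, 3 or 4, with median centring or with Agilent's processed log ratios. An exact sign-flip permutation test over 4 arrays cannot give a 2-sided p below 0.125, and over 3 arrays none below 0.25.

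The 10 genes leaned lower in the T3 rats without any single gene passing. Of them, 8 had a lower mean and 2 (Cck and Vip) a higher one, where 48.1% of all named genes had a lower mean. By the authors' deposited table the split was 5 higher and 5 lower, with a median of -0.075. In all, 4 (Penk, Tac1, Gnrh1 and Adcyap1) were lower on all 4 arrays, against 7.81% of named genes. Their median was -0.16, beside 0.0042 over all named genes. By array the median was -0.11, -0.089, -0.14 and -0.039, so it lay below 0 on each. Without array 2 the median was -0.097 and without array 3 it was -0.092. Brightness ranges of the T3 and saline rats overlapped for all 10 genes, so the differences show only within pairs.

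**Figure D1:**
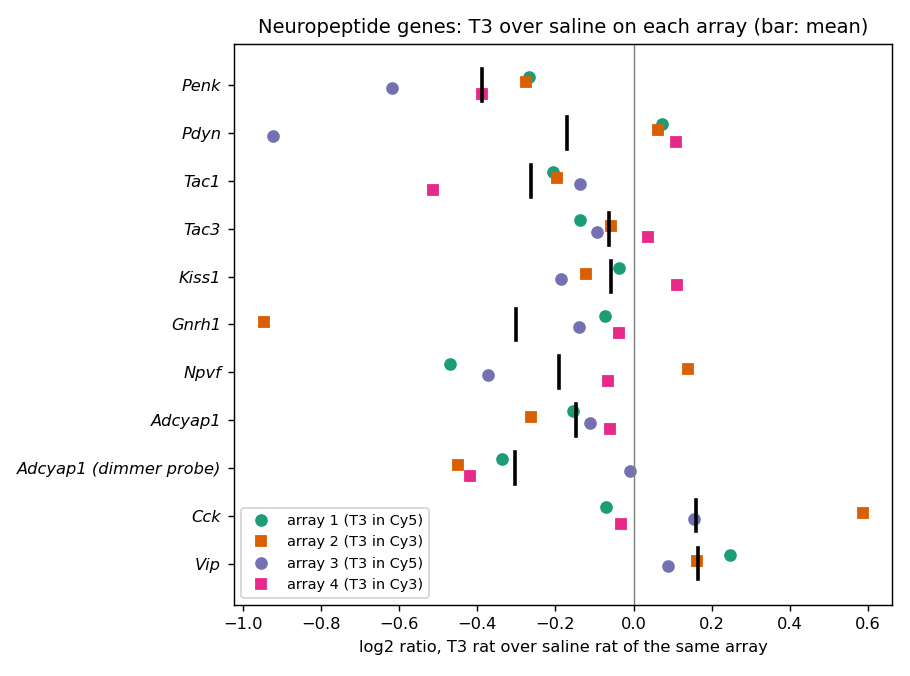
Log2 ratio of T3 over saline (horizontal axis) for the 11 probes tested, 1 marker per array and a bar at the mean; circles have T3 in Cy5 and squares in Cy3. Penk, Tac1, Gnrh1 and both Adcyap1 probes lie left of 0 on all 4 arrays, while Pdyn on array 3 (-0.92) and Gnrh1 on array 2 (-0.95) lie far from the other 3 arrays of their gene.

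Penk encodes proenkephalin, the precursor of the enkephalins, which act mainly on delta and mu opioid receptors. Its bright probe (A_42_P749184) read 5052, 8766, 5851 and 5635 in the T3 rats of arrays 1 to 4, against 6078, 10614, 8989 and 7377 in the saline rats of the same arrays. The T3 rat was the dimmer of the pair on every array. The log2 ratios were -0.27, -0.28, -0.62 and -0.39, with a mean of -0.39 ± 0.16 (SD, n = 4 arrays), which is 1.31-fold lower. The 95% interval of the mean ran from -0.58 to -0.19, and limma gave an adjusted p of 0.204 (unadjusted under 0.05). Penk had the smallest p of the 10 genes and stood at rank 138 of the 9304 named genes by p. A second Penk probe (A_44_P497807) was not well above background on any array in either channel and has no fold. A lower value appeared with T3 in either dye.

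Pdyn encodes prodynorphin, the precursor of dynorphins, which act on the kappa opioid receptor and restrain kisspeptin neurons in rodents. It read 10698, 16522, 8076 and 8854 in T3 rats, against 10176, 15818, 15321 and 8209 in saline rats. On arrays 1, 2 and 4 the T3 rat was slightly the brighter, with ratios of 0.07, 0.06 and 0.11. On array 3 the T3 rat was the dimmest of the 8 and the ratio was -0.92. The mean was -0.17 ± 0.50 (SD, n = 4 arrays), with a limma adjusted p of 0.901 and a 95% interval of -0.58 to 0.24. Without array 3 the mean was 0.081, so that 1 array alone gave the negative sign. The same array had high ratios of the choroid plexus markers transthyretin (Ttr, 3.53) and Sostdc1 (2.70). The 4 choroid plexus markers tested had a median ratio of 1.61 there, with Otx2 at 0.52 (0.96 on array 1) and Folr1, the lowest, at 0.30. On the other arrays that median lay between -0.37 and 0.28. The part of these markers in the Pdyn value was not tested.

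Tac1 encodes the precursor of substance P and neurokinin A, which act on the receptors of Tacr1 and Tacr2. It was printed in 10 spots on each array. Brightness was 7502, 10123, 8378 and 8295 in T3 rats, against 8659, 11592, 9215 and 11838 in saline rats. The T3 rat was dimmer in each pair, most so on array 4. Ratios were -0.21, -0.20, -0.14 and -0.51, with a mean of -0.26 ± 0.17 (SD, n = 4 arrays), 1.20-fold lower. Limma gave an adjusted p of 0.441 (unadjusted under 0.05) and a 95% interval of -0.46 to -0.065. Of its spots in use, 10 of 10, 10 of 10, 9 of 10 and 9 of 9 were lower in the T3 rat on arrays 1 to 4; 1 spot on array 4 was left out as an outlier. The sign on each array therefore did not rest on a single spot.

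Tac3 encodes neurokinin B, the ligand of the receptor of Tacr3 and a stimulator of kisspeptin release in rodents. It read 3174, 6864, 4289 and 3744 in T3 rats, against 3493, 7140, 4575 and 3653 in saline rats. The 2 rats of a pair were close on every array, while array 2 was the brightest in both treatments. The mean ratio was -0.063 ± 0.074 (SD, n = 4 arrays), with a limma adjusted p of 0.911. Its 95% interval, -0.23 to 0.099, was the narrowest of the 10 genes and bounds any mean change at 0.855-fold to 1.07-fold.

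**Figure D2:**
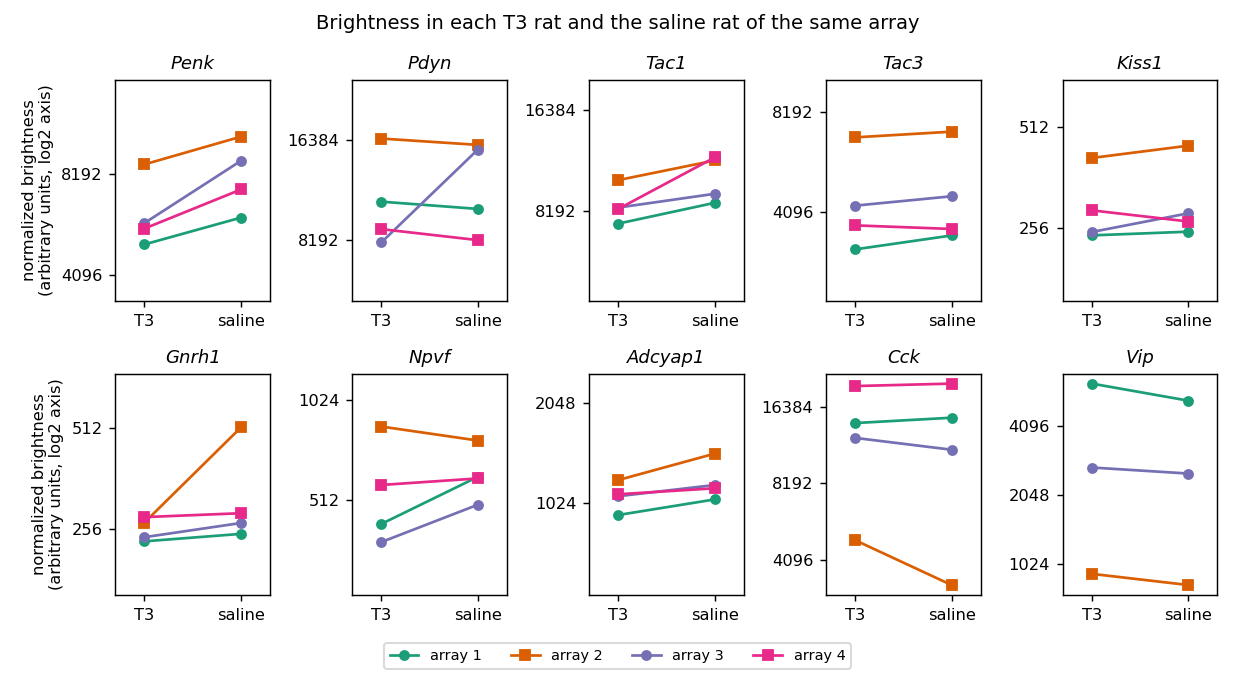
Normalized brightness (arbitrary units, log2 axis, with a range that differs between panels) of each T3 rat (left) and the saline rat of the same array (right), joined by a line. Lines for Penk, Tac1, Gnrh1 and Adcyap1 climb from T3 to saline on all 4 arrays, and for Cck and Vip the lines of the arrays lie far apart; Vip has no usable spot on array 4.

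Kiss1 encodes kisspeptin. It was dim, at 243, 415, 249 and 289 in T3 rats, against 250, 452, 283 and 268 in saline rats, but it was above background in every rat. The T3 rat was lower on arrays 1 to 3 and higher on array 4. The mean ratio was -0.059 ± 0.13 (SD, n = 4 arrays; limma adjusted p 0.937), with a 95% interval of -0.24 to 0.12. It was -0.016 without array 3 and -0.11 without array 4.

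Gnrh1 was printed in 10 spots per array and was well above background in every rat. It read 235, 268, 242 and 278 in T3 rats, against 248, 516, 267 and 285 in saline rats. The saline rat of array 2 stood apart from the other 7 rats, which all lay between 235 and 285. Ratios were -0.07, -0.95, -0.14 and -0.04, and the mean was -0.30 ± 0.43 (SD, n = 4 arrays; limma adjusted p 0.694). Without array 2 the mean was -0.085. All 10 spots on array 2 were lower in the T3 rat, between -1.12 and -0.79, so the difference between those 2 rats was not a fault of 1 spot. Elsewhere the spots in use were mixed in sign: 8 of 10 were lower on array 1, 8 of 9 on array 3 and 6 of 9 on array 4. On array 2 the 3 red blood cell genes tested were also far lower in the T3 rat, with a median of -3.25 (Alas2 -3.20, Hbb-b1 -4.25), against 0.34 to 1.35 on the other arrays. The part of this in the Gnrh1 value was not tested.

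Npvf read 435, 851, 384 and 569 in T3 rats, against 602, 772, 496 and 595 in saline rats. The T3 rat was lower on arrays 1, 3 and 4 and higher on array 2. Ratios were -0.47, 0.14, -0.37 and -0.07, with a mean of -0.19 ± 0.28 (SD, n = 4 arrays; limma adjusted p 0.751). The mean was -0.099 without array 1 and -0.30 without array 2, and the limma p was under 0.05 unadjusted without array 2 and with a dye term in the fit. The lower ratios came where T3 was labelled with Cy5, and the dye term in the fit was -0.23, with an unadjusted limma p under 0.05. Across all kept probes, 3936 had a dye term at an unadjusted p under 0.05 and 0 passed adjustment in limma.

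Adcyap1 encodes PACAP, a peptide abundant in the ventromedial nucleus that signals through the receptor of Adcyap1r1. Its brighter probe (A_44_P522701) read 944, 1201, 1075 and 1089 in T3 rats, against 1051, 1441, 1161 and 1135 in saline rats. The T3 rat was dimmer in all 4 pairs by a small margin. The ratios of -0.15, -0.26, -0.11 and -0.06 averaged -0.15 ± 0.087 (SD, n = 4 arrays; limma adjusted p 0.671). The dimmer probe (A_44_P142168) gave -0.34, -0.45, -0.01 and -0.42, a mean of -0.30 ± 0.20 (SD, n = 4 arrays; limma adjusted p 0.396, unadjusted under 0.05). The probes shared the sign on each array and differed in size.

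Cck encodes cholecystokinin, a peptide of cortex, thalamus and several hypothalamic nuclei whose main brain receptor is that of Cckbr. Brightness was 14137, 4908, 12366 and 19751 in T3 rats, against 14837, 3270, 11111 and 20196 in saline rats. Both rats of array 2 were far below the other 6. The ratios of -0.07, 0.59, 0.15 and -0.03 averaged 0.16 ± 0.30 (SD, n = 4 arrays; limma adjusted p 0.832). Without array 2 the mean was 0.018, so the higher mean rests on that array. On array 2 all 10 spots were higher in the T3 rat, between 0.48 and 0.66. The highest rat exceeded the lowest by 4.02-fold among T3 rats and by 6.18-fold among saline rats, both far beyond the mean T3 ratio of 1.12-fold.

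Vip encodes vasoactive intestinal peptide. On arrays 1 to 3 it read 6281, 927 and 2701 in T3 rats, against 5289, 828 and 2542 in saline rats. The T3 rat was slightly the brighter each time, with ratios of 0.25, 0.16 and 0.09 and a mean of 0.17 ± 0.080 (SD, n = 3 arrays; limma adjusted p 0.709). The single spot on array 4 was marked non-uniform by the scanner software and was left out. Read as it stood, it gave -0.75, and with such spots kept the 4-array mean was -0.063, so the sign of the Vip value rests on that 1 spot being left out.

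**Figure D3:**
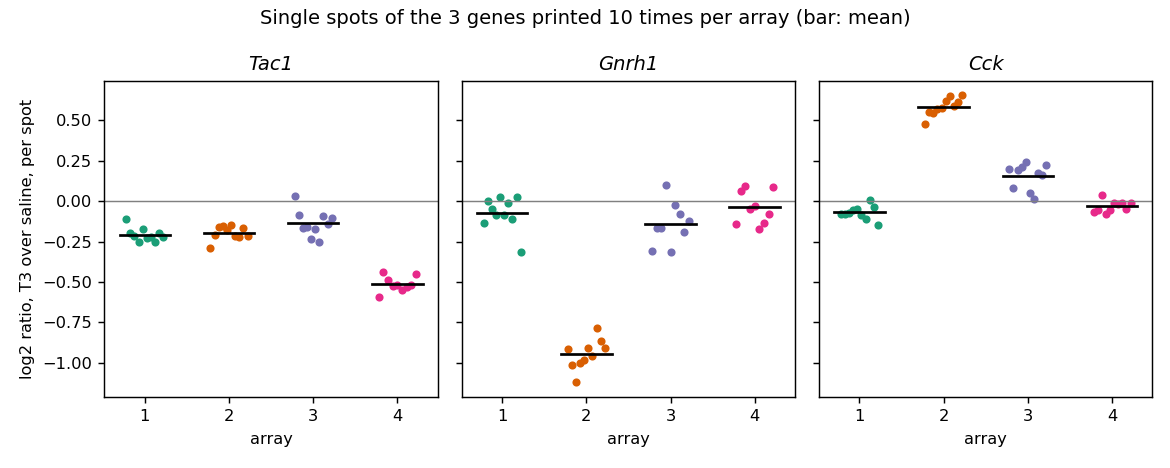
Log2 ratio of T3 over saline of each single spot (vertical axis) on arrays 1 to 4 for the 3 genes printed 10 times per array, with a bar at the mean; spots marked as outliers are not drawn. Spots of 1 array lie together while arrays differ, as in Gnrh1 and Cck on array 2.

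The repeated spots show how closely spots of 1 array gave the same ratio. For Cck the SD between spots of an array was 0.0547 on the log2 scale, against an SD of 0.301 between arrays, a ratio of 5.50. For Gnrh1 these were 0.108 and 0.433, a ratio of 4.01, and for Tac1 0.0566 and 0.169, a ratio of 2.99. Repeated spots share the RNA, the labelling and the array, so they leave out any error of labelling or of the array, which cannot be told apart from differences between rat pairs.

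The levels of the pairs, taken as the mean log2 brightness of the T3 rat and the saline rat of an array, ordered the 10 genes into opposite patterns. Of these, 8 (Penk, Pdyn, Tac1, Tac3, Kiss1, Gnrh1, Npvf and Adcyap1) had their highest pair level on array 2, where 19.3% of 9049 named genes had theirs. Cck and Vip had their lowest there, as did 30.3% of named genes. The Cck pair level was 14480, 4006, 11720 and 19980 on arrays 1 to 4, a range of 4.99-fold, which 3.74% of named genes matched or exceeded. The Vip pair level was 5765, 876 and 2619 on arrays 1 to 3, a range of 6.58-fold. Tac3 ranged over 2.10-fold and Adcyap1 over 1.32-fold, and the median over all named genes was 1.31-fold. For Vip the SD of the pair levels was 1.37 on the log2 scale, against 0.080 for its T3 ratio. Rat pair and array cannot be told apart in these levels.

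**Figure D4:**
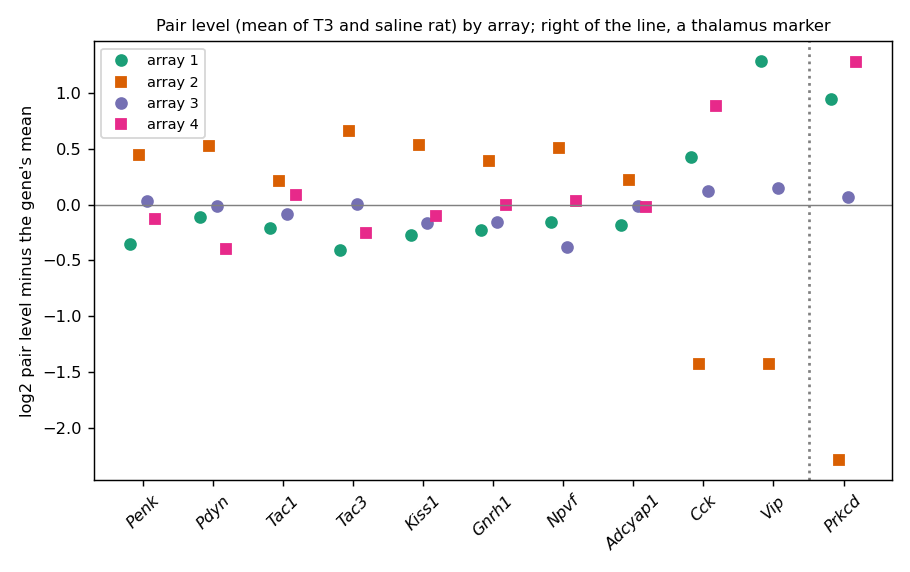
Log2 pair level (mean of the T3 rat and the saline rat of an array) minus the gene's mean over arrays (vertical axis), 1 marker per array. Array 2 is highest for 8 genes and lowest for Cck and Vip; right of the dotted line is Prkcd, a thalamus marker picked after its values were seen, also lowest on array 2, while Calb2, another thalamus marker that is not drawn, was not lowest there.

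Markers of the tissue block moved with these levels. Prkcd, a marker of thalamic relay nuclei that was picked out after its values were seen, had pair levels of 28210, 2982, 15320 and 35360, in the same order of arrays as Cck. Lef1, a second thalamus marker, ran in that order too, at 214, 123, 164 and 292, while Calb2 stayed between 31300 and 36210. Among the 6 hypothalamic nucleus markers tested, Hdc, the histamine-forming enzyme of the tuberomammillary nucleus, was highest on array 2 (2837, 5379, 3735 and 3502), as were Sim1, Nkx2-1, Tbx3 and Barhl1. How the cut of the block bears on the neuropeptide levels was not tested. Between the T3 and saline rats of a pair, the median was -0.037 over the hypothalamic nucleus markers and 0.088 over the 3 thalamus markers. Over the 11 pan-neuronal genes tested it was 0.020. Of the 6 hypothalamic nucleus markers 5 had a lower mean and 1 a higher one, where 48.1% of all named genes had a lower mean. Of the thalamus markers 1 was lower and 2 higher, and of the pan-neuronal genes 3 were lower and 8 higher. In limma 0 of each list were called. Only Hdc (-0.31 ± 0.21, SD, n = 4 arrays, limma adjusted p 0.396) had an unadjusted p under 0.05, and it was lower on all 4 arrays. Hypothalamic nucleus markers had their farthest median on array 3 (-0.18), with Barhl1 highest at 0.09 and Nkx2-1 lowest at -0.26. Pan-neuronal genes had theirs on array 1 (0.090), between Gad2 at 0.47 and Map2 at -0.33. Thalamus markers had theirs on array 4 (-0.26), between Calb2 at 0.31 and Lef1 at -0.49. Pituitary markers had a median of -0.29 over 4 genes tested, and by array it was -0.25, -0.45, -0.53 and -0.49. That median lay below 0 on each array, as for the neuropeptide genes, but 0 of the 4 genes were lower on all 4 arrays. Cga was 0.50 on array 2 and Tshb 0.17 on array 4. In the T3 channel, Tshb was well above background on only 2 arrays and Cga on 3. The part of these markers in the neuropeptide values was not tested. Tshb, the thyrotropin beta subunit, averaged -0.67 (0 called in limma, Tshb alone at an unadjusted p under 0.05). On array 1, the most distant by its median, the pituitary markers ran from Tshb at -1.09 to Lhb at 1.46.

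Receptors of these peptides were measured less well. Of 15 listed, 13 had a probe and 8 were tested, and 0 were called in limma, with 1 (Cckbr) at an unadjusted p under 0.05. Cckbr gave -0.07, 0.51, 0.46 and 0.44, a mean of 0.34 ± 0.27 (SD, n = 4 arrays; limma adjusted p 0.444). For the tachykinin receptors, Tacr3, the receptor of neurokinin B, averaged 0.23 ± 0.32, Tacr1 -0.026 and Tacr2 0.040. Kiss1r, the kisspeptin receptor, averaged -0.036, Adcyap1r1 0.022, and Oprd1, the delta opioid receptor, -0.095. Vipr2, a receptor of VIP and PACAP, averaged 0.074 ± 0.34 and reached 0.58 on array 2, with the other arrays between -0.13 and -0.07. Oprm1, Gnrhr, Npffr1, Npffr2 and Vipr1 had probes too dim to be tested. The median over the 8 receptors was 0.031, and by array it was -0.078, 0.26, -0.054 and -0.023.

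Genes that make, store and break down peptides gave 0 calls in limma in 3 further lists. Ctsl, a cysteine protease that can cut proenkephalin in secretory vesicles, was the nearest to one, at 0.59, 0.30, 0.51 and 0.79, a mean of 0.55 ± 0.20 (SD, n = 4 arrays; limma adjusted p 0.103). Its second probe averaged 0.56 (limma adjusted p 0.149). It was the 1 gene of the 9 processing enzymes with an unadjusted p under 0.05, and 7 of the 9 had a lower mean, with a median of -0.042. The 11 granin and dense core vesicle genes tested had a median of 0.027 and 0 at an unadjusted p under 0.05, and Cadps, which primes those vesicles, had the smallest p of them (0.12 ± 0.068, SD, n = 4 arrays; limma adjusted p 0.744). Of the 11 peptidases in the last list, 9 had a higher mean, against 4828 of all 9304 named genes, and the median was 0.084. None was at an unadjusted p under 0.05, and Anpep, an aminopeptidase that cleaves enkephalins, had the smallest p of them (0.15 ± 0.040, SD, n = 4 arrays; limma adjusted p 0.616).

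Other genes of the reproductive and opioid systems gave 0 calls in limma as well, with 1 gene of each list at an unadjusted p under 0.05. Of 8 sex steroid and reproductive regulators 3 were tested, and Srd5a1, which makes dihydrotestosterone and neurosteroids, averaged 0.35 ± 0.20 (SD, n = 4 arrays; limma adjusted p 0.302), while its second probe averaged 0.10. Among 7 other opioid and RFamide genes tested, Npff, the precursor of neuropeptide FF, averaged 0.29 ± 0.25 (SD, n = 4 arrays; limma adjusted p 0.520), and Pomc, the precursor of beta-endorphin, averaged -0.23 ± 0.49 (limma adjusted p 0.835).

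Genes close to Penk and Pdyn over the 4 arrays were found by the root mean square difference of their log2 ratios, among 8953 named genes outside the lists. For Penk they included Thbs2 (0.0549), Rhbdf1 (0.0810) and Carhsp1 (0.0988), each lower on all 4 arrays. For Pdyn they were Hdgfl3 (0.140), Pex11g (0.161), Cyp4v3 (0.183) and Syt5 (0.198), all lowest on array 3. None of these 7 was called in limma, with adjusted p from 0.136 to 0.996. With 4 arrays and so many genes, close profiles are a description.

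The authors' deposited value table gave other signs for several members. Read as log2 of T3 over saline, it put the mean of Penk at 0.17, of Tac1 at 0.022, of Tac3 at 0.020, of Kiss1 at 0.039 and of Npvf at 0.048, where the scanner files gave negative means, and it put Cck at -0.63 and Vip at -0.38, where they gave positive ones. Pdyn, Gnrh1 and Adcyap1 kept their sign. Across 18720 probes, the authors' deposited table correlated with the ratios of the same array at r = 0.449, 0.433, 0.180 and 0.288, and its columns for arrays 3 and 4 correlated with each other at r = -0.533. Array 3 correlated better with the table's column for array 1 (r = 0.283) than with its own, and array 4 better with the column for array 2 (r = 0.354), which hold the same dye orientation. Whether columns of the authors' deposited table stand under another array's label was not tested. Its direction was read from 10 spike-in probes, of which 10, 9, 10 and 10 had the sign of the dye-turned scanner ratio on arrays 1 to 4. Its scale, centring and normalization stay unknown, and why it differs was not tested. The signs given above for these 7 genes therefore hold for the scanner files and not for the authors' deposited table.

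**Figure D5:**
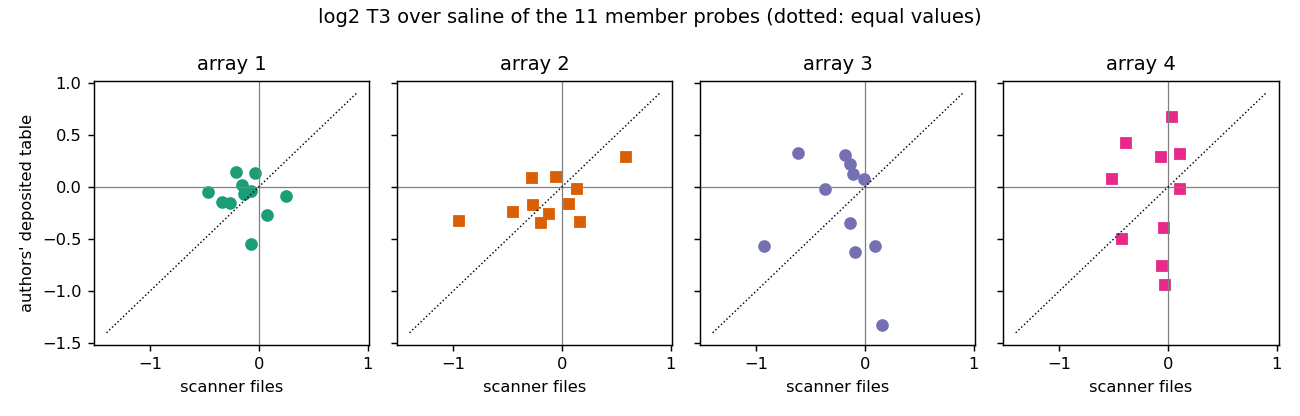
Log2 ratio of T3 over saline of the 11 member probes from the scanner files (horizontal axis) against the authors' deposited table (vertical axis), 1 panel per array, with a dotted line of equal values. Points scatter widely around the line, most on arrays 3 and 4.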

How the data were processed

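The deposited scanner files held the intensity of each spot and its background (median pixel brightness before any normalization). Per the file headers, they came from Agilent Feature Extraction 10.7.3.1. They also held a log10 ratio of Cy5 over Cy3 from the scanner software's processed signals, per the file headers. The authors' deposited table of log ratios, taken here as log2, came from limma 3.18.9, as the submitters' processing notes name it; its log base and normalization are not given in the sources used here. All arrays lay on 1 slide and shared 1 scan time, so neither could be tested as a batch. The labels give 8 rats, 4 per treatment, and each array was taken as an independent pair.

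Background was corrected with normexp (offset 50) and arrays were loess-normalized in limma 3.58.1 under R 4.3.3, with control spots at weight 0. Outlier spots were left out, spots of a probe averaged, and the ratios of arrays 2 and 4 turned. A probe was kept when well above background on at least 3 of 4 arrays in the T3 or the saline channel, which left 23191 of 41012. The share of probes well above background was 49.8% to 67.3% across the T3 channels and 51.1% to 62.5% across the saline ones. The fit was lmFit with eBayes (3 residual and 4.35 prior degrees of freedom), 2-sided, checked on simulated data. Channel brightness was scaled between arrays by Aquantile. The number of arrays limits the precision.

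Names came from RefSeq (GRCr8) through the probes' accessions: 16964 probes had 1 symbol and 24048 had none or several. A gene's value is that of its brightest kept probe. The members and gene lists were chosen with earlier results of these data known. Genes named are all members, of each list those called or else the smallest p, the receptors of the members, of each marker list the highest and lowest on its most distant array, Hr, and the 4 nearest profiles of the member with the smallest p and of that with the widest range. Some genes of this rule and of the lists are not reported here. Alternatives changed background correction, normalization, filter, dye term, variance model, weights, threshold, probe choice, outlier spots and replicates.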

Additional observations from a re-analysis of the deposited data

Results flagged for a closer look

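In 44 groups of 4 array values, 3 had 1 value far from the others by Dixon's limit for 4 values, which chance passes in about 1 group in 20. Pdyn was -0.924 on array 3, against 0.063 to 0.109 on the other arrays. Gnrh1 was -0.947 on array 2, against -0.141 to -0.039 elsewhere, in all 10 of its spots. The median of the 8 receptor genes was 0.258 on array 2, against -0.078 to -0.023 on the others.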

How the results depend on the processing

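No neuropeptide gene was called under any of the alternatives run. Of 160 values of single members under the alternatives, 151 kept their direction and their side of the threshold and 9 reversed. The filters and the variance model could not change a log2 value, and the dye term could hardly do so. Neither could probe choice in genes with 1 kept probe, nor outlier spots in genes without any. A kept direction under these was therefore fixed in advance. With the authors' deposited table, Penk was 0.171, Tac1 0.0218, Tac3 0.0199, Kiss1 0.0387, Npvf 0.0481, Cck -0.634 and Vip -0.385; the cause was not tested. Pdyn was 0.0814 without replicate 3 and Vip -0.0632 with outlier spots kept, each through that 1 array (Pdyn ran from -0.263 to 0.0814 with 1 replicate left out). The adjusted p of Penk ran from 0.115 to 1.0. The median of the 10 genes was -0.0751 in the authors' deposited table, -0.207 with median centring (where that of all named genes was -0.0228), and -0.178 to -0.0923 with 1 replicate left out. The 23 probes called became 14 with a normexp offset of 16, 0 with Agilent's processed log ratios (1981 at an unadjusted p under 0.05), 10 in the authors' deposited table, 0 with median centring (131 at an unadjusted p under 0.05), 67 with no filter on dim probes, 15 with a dye term, 38 with a trended and robust eBayes and 90 at an adjusted p of 0.1. They were 0 to 68 with 1 replicate left out: 68 without replicate 2 and 0 without each of the others, where 1383 to 1577 had an unadjusted p under 0.05. Each array sets 1 T3 rat against 1 saline rat, and the test is on that ratio, so it already uses the pairing within arrays.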
